A study of Mus musculus with 21 samples.

Results

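Nop58, Eef1b2 and Gnl3 are protein-coding mouse genes whose introns hold small nucleolar RNAs (snoRNAs), and the binding of SRSF3 and SRSF7 to their transcripts is described here in chromatin, nucleoplasm and cytoplasm. The members were chosen by gene and by genomic interval, with measured binding at these intervals already known, so their levels and fraction differences are given as a description with no test. There are 3 members among 34919 loci of all lists, a locus being a run of bound positions on 1 strand joined at gaps of up to 10000 nt. In build mm9 the intervals are chr1:59728693-59778170 on the plus strand for Nop58 (49478 nt), chr1:63223703-63228440 on the plus strand for Eef1b2 (4738 nt) and chr14:31825550-31832202 on the minus strand for Gnl3 (6653 nt). Each interval had the same start, end and strand as 1 locus, so its edges are listed positions and were not checked against annotated gene ends.

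iCLIP maps the nucleotides at which a protein was crosslinked to RNA, and here it was run on subcellular fractions of P19, a line from a mouse embryonal carcinoma, with SRSF3 or SRSF7 as a GFP fusion. Both are SR proteins, which bind pre-mRNA in splicing and take part in mRNA export. The 6 groups were SRSF3-GFP chromatin, nucleoplasm and cytoplasm, with 4 replicates each, and SRSF7-GFP chromatin, nucleoplasm and cytoplasm, with 3 replicates each. All groups carried a GFP fusion and were irradiated at 254 nm, and no group without a fusion was analysed, so background could not be subtracted. What drives the fusions, and whether a line is 1 clone, was not stated in the labels. Replicates of each group were pooled before deposit into 1 list of bound nucleotides with their cDNA counts, so no spread between replicates exists and every interval below covers counting error only. The lists held between 248498 cDNAs (SRSF7 chromatin) and 1768665 cDNAs (SRSF3 chromatin). A position appears in a list only if it passed the authors' significance threshold, so a position that is not listed is not shown to be unbound. In material of this kind, fewer RNA molecules of a gene in a fraction and less protein per molecule cannot be told apart.

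snoRNAs are short nucleolar RNAs that guide chemical modification of ribosomal RNA. Box C/D snoRNAs, named Snord, guide ribose methylation, and box H/ACA snoRNAs, named Snora, guide pseudouridylation. Most mammalian snoRNAs are cut from the introns of a host transcript after splicing, while the spliced host mRNA is exported and translated. Nop58 encodes a core protein of box C/D snoRNPs. Eef1b2 encodes a subunit of the exchange factor of translation elongation factor eEF1A. Gnl3 encodes nucleostemin, a nucleolar GTP-binding protein. In the RefSeq gene table of GRCm38.p6, 4 snoRNA genes lie within Nop58, in transcript order Snord70, LOC115485825, Gm26287 and Snord11. The table places 2 within Eef1b2, Gm26457 and Snora41, and 3 within Gnl3, Snord19, LOC115488429 and Snord69, where the gene Glt8d1 also overlaps Gnl3. Coordinates were not carried over from that build to mm9, so no bound cluster is assigned to a snoRNA below, and exons and introns of the intervals are not annotated here.

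Each of the 3 genes took a larger share of the chromatin list than of the cytoplasm list in both proteins, while nucleoplasm varied. For SRSF3, Nop58 took 0.151% of the chromatin list (95% Clopper-Pearson bounds 0.146 and 0.157), 0.0675% of the nucleoplasm list (0.0587 and 0.0772) and 0.0214% of the cytoplasm list (0.0161 and 0.0278). For SRSF7 it took 0.291% of chromatin (0.270 and 0.313), 0.121% of nucleoplasm (0.109 and 0.135) and 0.0182% of cytoplasm (0.0141 and 0.0232). These shares rest on 2678, 213 and 55 cDNAs for SRSF3 and on 722, 334 and 67 for SRSF7. The 3 intervals of a protein did not overlap, and the order was chromatin, nucleoplasm, cytoplasm for both proteins.

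Eef1b2 was the exception in SRSF3, where nucleoplasm came first. It took 0.0627% of SRSF3 chromatin (0.0591 and 0.0665), 0.104% of nucleoplasm (0.0933 and 0.116) and 0.0323% of cytoplasm (0.0257 and 0.0400), from 1109, 329 and 83 cDNAs. In SRSF7 the order was that of Nop58, with 0.138% of chromatin (0.124 and 0.153), 0.0993% of nucleoplasm (0.0878 and 0.112) and 0.0261% of cytoplasm (0.0212 and 0.0319), from 343, 273 and 96 cDNAs. Cytoplasm was the lowest list for Eef1b2 in both proteins.

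Gnl3 had the widest gaps between the proteins. It took 0.0560% of SRSF3 chromatin (0.0525 and 0.0596), 0.0120% of nucleoplasm (0.00852 and 0.0165) and 0.0179% of cytoplasm (0.0131 and 0.0239), from 990, 38 and 46 cDNAs. The SRSF3 nucleoplasm and cytoplasm intervals overlapped. In SRSF7 it took 0.213% of chromatin (0.195 and 0.232), 0.0971% of nucleoplasm (0.0858 and 0.109) and 0.00653% of cytoplasm (0.00419 and 0.00972), from 529, 267 and 24 cDNAs, with no overlap between fractions.

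**Figure D1:**
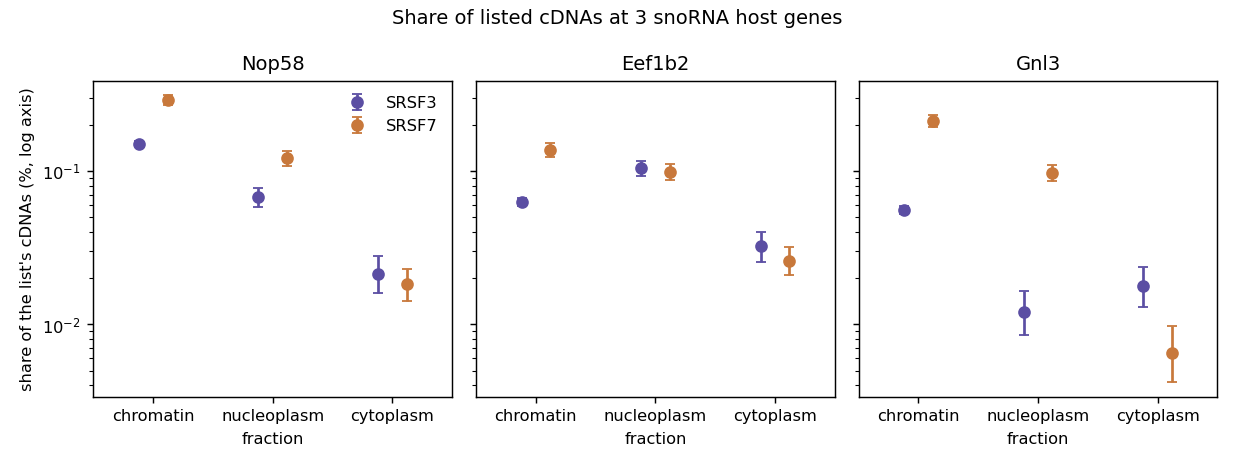
Share of each list's cDNAs (percent, log axis) at Nop58, Eef1b2 and Gnl3, by fraction, for SRSF3 and SRSF7, with bars for the 95% Clopper-Pearson interval. Cytoplasm is the lowest list in all panels except SRSF3 at Gnl3, where nucleoplasm and cytoplasm overlap at 0.0120% and 0.0179%.

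Because the intervals differ in length, levels between genes were compared per kb. Eef1b2, the shortest, was the densest in SRSF3, at 132, 220.1 and 68.1 cDNAs per kb for every 1000000 listed cDNAs in chromatin, nucleoplasm and cytoplasm. Gnl3 came next in each SRSF3 list, with 84.1, 18.1 and 26.9, and Nop58 last, with 30.6, 13.6 and 4.32. In SRSF7, Gnl3 was densest in chromatin at 320.0, above Eef1b2 at 291 and Nop58 at 58.7. In SRSF7 nucleoplasm Eef1b2 had 209.5, Gnl3 146 and Nop58 24.5, and in SRSF7 cytoplasm 55.2, 9.82 and 3.69 in the same order. Joined at gaps of up to 1000 nt in place of 10000 nt, the stretch around the tallest Nop58 cluster spans 6257 nt of the 49478. It held 1521 of the 2678 Nop58 cDNAs in SRSF3 chromatin and 555 of the 722 in SRSF7 chromatin. Over that stretch alone Nop58 would not be last in either chromatin list. Both the Nop58 density and its place among the genes thus depend on how the interval is drawn.

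Chromatin was first set against cytoplasm. The share of Nop58 was 7.08-fold higher in SRSF3 chromatin than in SRSF3 cytoplasm, a log2 ratio of 2.82 (95% conditional exact interval 2.44 to 3.24). For Gnl3 the ratio was 3.13-fold, or 1.65 (1.22 to 2.10), and for Eef1b2 1.94-fold, or 0.96 (0.64 to 1.30). A locus was counted as beyond 2-fold when its whole interval was, and 2 of 3 members were, against 20.8% of the 1050 loci compared in that direction. No member was beyond 2-fold in the direction of cytoplasm, against 38% of loci. The median locus had a log2 ratio of -0.74, and the members lay above 91.4% (Nop58), 73.8% (Eef1b2) and 81.0% (Gnl3) of loci. Leaving out mitochondrial RNA and the 10 highest loci shifted every SRSF3 ratio here by -0.70, which placed Nop58 at 2.12, Eef1b2 at 0.26 and Gnl3 at 0.94, with Gnl3 no longer beyond 2-fold. With positions counted in place of cDNAs, no member was beyond 2-fold towards chromatin (Nop58 1.21, Gnl3 -0.46), and Eef1b2 turned to -2.21 (-2.69 to -1.70), beyond 2-fold towards cytoplasm. Ratios of positions are scaled to the positions of each list and count a position once, whatever its cDNAs. SRSF3 chromatin lists 870234 positions from 1768665 cDNAs, and SRSF3 cytoplasm 58686 from 257089. SRSF7 chromatin lists 76172 from 248498, so the number of positions does not follow depth alone. Why ratios of positions and of cDNAs differ was not tested. With only positions of 3 or more cDNAs, Eef1b2 was beyond 2-fold towards chromatin (2.94).

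In SRSF7 the ratios of all 3 genes were larger than in SRSF3, a difference that was not tested. Gnl3 was 32.6-fold higher in SRSF7 chromatin than in cytoplasm, a log2 ratio of 5.03 (4.44 to 5.68) and the next to highest of 852 loci. Nop58 was 15.9-fold higher, at 3.99 (3.63 to 4.38), and ranked 19 from the top. Eef1b2 was 5.28-fold higher, at 2.40 (2.07 to 2.74), and ranked 110. All 3 members were beyond 2-fold, against 22.3% of loci in that direction and 16.8% in the other, and the median locus had a log2 ratio of 0.01. With positions counted, Eef1b2 had 0.73 and was no longer beyond 2-fold. Since measured values were known when the members were chosen, nothing is read from these counts.

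Nucleoplasm lay between the outer fractions for Nop58 in both proteins. In SRSF3, the log2 ratio of chromatin to nucleoplasm was 1.17 for Nop58 (0.96 to 1.37), -0.73 for Eef1b2 (-0.91 to -0.55) and 2.22 for Gnl3 (1.75 to 2.72), with 1 of 3 beyond 2-fold against 17.2% of 1778 loci, and 0 of 3 in the other direction against 31.6%. In SRSF7 the ratios were 1.26 for Nop58 (1.07 to 1.45), 0.48 for Eef1b2 (0.24 to 0.71) and 1.13 for Gnl3 (0.92 to 1.35), with 1 of 3 beyond 2-fold against 14.2% of 915 loci, and 0 of 3 in the other direction against 21.5%. Eef1b2 had opposite signs in the proteins, and that difference was not tested because each value is 1 pooled list. With positions of at least 3 cDNAs, the Eef1b2 ratio was 0.0091 in SRSF3 (-0.20 to 0.22) and -0.10 in SRSF7 (-0.35 to 0.15), a setting that changes the totals of the lists as well as the counts of the gene. That setting also put Nop58 in SRSF3 (1.63) beyond 2-fold, and leaving out mitochondrial RNA and the 10 highest loci did so for Gnl3 in SRSF7 (1.38). With positions counted, Eef1b2 in SRSF3 was beyond 2-fold towards nucleoplasm (-2.35, -2.73 to -1.97), and Gnl3 in SRSF3 (0.11) and Nop58 in SRSF7 (0.53) were no longer beyond 2-fold.

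Between nucleoplasm and cytoplasm the SRSF3 log2 ratios were 1.66 for Nop58 (1.22 to 2.11), 1.69 for Eef1b2 (1.34 to 2.06) and -0.57 for Gnl3 (-1.23 to 0.08). That placed 2 of 3 members beyond 2-fold, against 16.8% of 921 loci, and 0 of 3 in the other direction against 8.36%. In SRSF7 the ratios were 2.74 for Nop58 (2.35 to 3.14), 1.93 for Eef1b2 (1.58 to 2.28) and 3.89 for Gnl3 (3.29 to 4.56), all 3 beyond 2-fold against 22.6% of 1248 loci, with 16.6% in the other direction. The interval of Gnl3 in SRSF3 includes 0. It lay below 0 with only positions of 3 or more cDNAs (-1.19, -2.11 to -0.33) and without mitochondrial RNA and the 10 highest loci (-0.86, -1.52 to -0.21). Nop58 in SRSF3 was no longer beyond 2-fold with its interval joined at 1000 nt (1.15), without mitochondrial RNA and the 10 highest loci (1.37) or with positions counted (0.88). Counting positions also ended the calls of Eef1b2 in SRSF3 (0.15), Nop58 in SRSF7 (1.24) and Eef1b2 in SRSF7, which turned to -0.63.

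Set against each other, SRSF3 held the smaller share at all 3 genes in chromatin. The authors' track names differ between the proteins in a term for how regions were treated, as described below. A difference in peak calling and a difference in binding therefore cannot be told apart in these ratios. The log2 ratio of SRSF3 to SRSF7 in chromatin was -0.94 for Nop58 (-1.06 to -0.82), -1.14 for Eef1b2 (-1.31 to -0.96) and -1.93 for Gnl3 (-2.08 to -1.77). Only Gnl3 was beyond 2-fold, 1 of 3 against 17.2% of 1358 loci, and 0 of 3 were in the other direction against 21.4%. Without mitochondrial RNA and the 10 highest loci, Nop58 (-1.30) and Eef1b2 (-1.50) were beyond 2-fold too, as were Nop58 with its interval joined at 1000 nt (-1.38) and Eef1b2 with positions counted (-2.25). In nucleoplasm the ratios were -0.85 for Nop58 (-1.10 to -0.59), 0.071 for Eef1b2 (-0.16 to 0.31) and -3.01 for Gnl3 (-3.54 to -2.52), again with only Gnl3 beyond 2-fold, against 18.3% of 1093 loci and 12.7% in the other direction. In cytoplasm they were 0.23 for Nop58 (-0.31 to 0.77), 0.30 for Eef1b2 (-0.14 to 0.74) and 1.45 for Gnl3 (0.71 to 2.23), with 0 of 3 beyond 2-fold, against 14% higher and 20.7% lower of 866 loci. Nop58 in cytoplasm was beyond 2-fold, and higher in SRSF3, when only positions of 3 or more cDNAs were counted (3.85, from 40 and 3 cDNAs, 2.20 to 6.18) or when its interval was joined at 1000 nt (1.84).

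**Figure D2:**
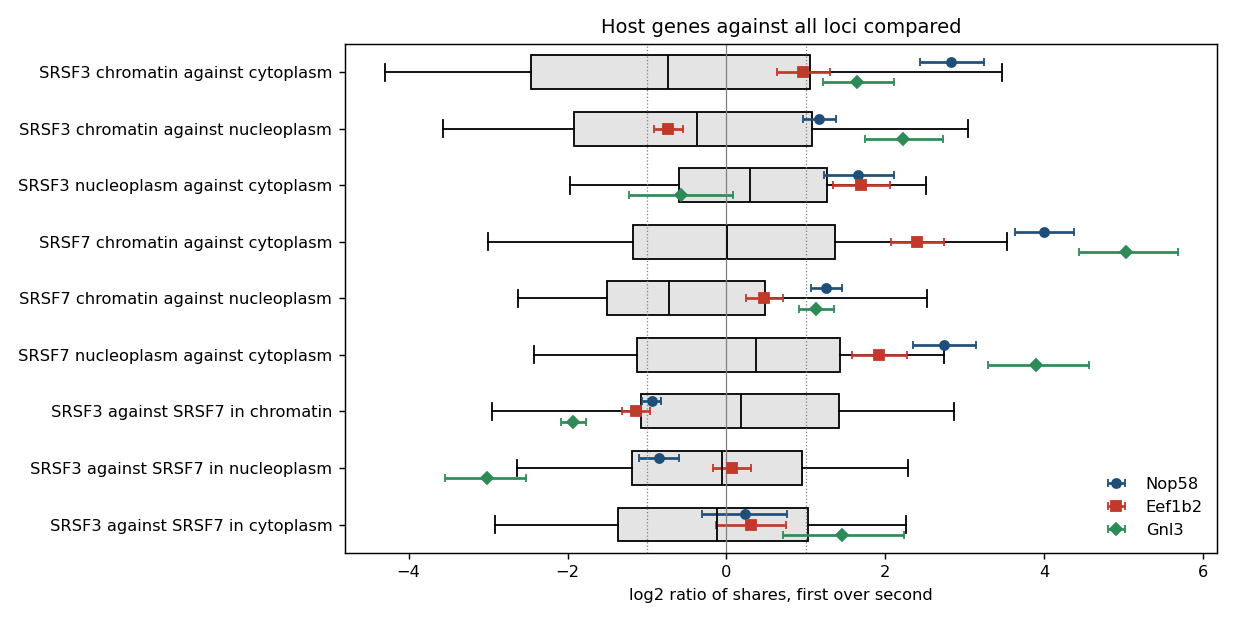
Log2 ratio of shares, first group over second, for Nop58, Eef1b2 and Gnl3 with 95% conditional exact intervals, over boxes of all loci compared (box: quartiles and median; whiskers: 5th to 95th percentile; dotted lines: 2-fold). In SRSF7 chromatin against cytoplasm the markers lie at 2.40 to 5.03 while the median locus lies at 0.01.

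In the chromatin and nucleoplasm lists, most cDNAs of each gene lay in a few short clusters. In cytoplasm the part that did so varied with gene and protein. Positions of the 6 lists were joined at gaps of up to 30 nt, which gave 110 clusters in Nop58, 16 in Eef1b2 and 17 in Gnl3. Clusters holding on average at least 10% of a gene's cDNAs over the 4 chromatin and nucleoplasm lists are called dense here and lettered from the 5′ side. That rule was set after the profiles had been seen, and it favours a high share in those 4 lists by its choice of clusters. It gave 4 dense clusters in Nop58, 3 in Eef1b2 and 3 in Gnl3, which cover 330 nt, 111 nt and 133 nt of the intervals. The lowest dense means were 11.1%, 22.0% and 19.7%, and the highest means outside were 2.29%, 5.09% and 1.94%. The number of dense clusters depends on the threshold: at 20%, clusters A and B of Nop58 and C of Gnl3 drop out, and at 5% Eef1b2 gains 1.

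In Nop58 the dense clusters formed 2 pairs. Cluster A lay at 59748740 to 59748821 and cluster B 435 nt further on, at 59749257 to 59749401. After 11686 nt followed cluster C at 59761088 to 59761144, and 496 nt later cluster D at 59761641 to 59761686. In SRSF3 chromatin the 4 held 358, 196, 838 and 386 cDNAs in that order, and in SRSF7 chromatin 90, 61, 450 and 97. In nucleoplasm SRSF3 had 33, 26, 81 and 55 cDNAs and SRSF7 40, 55, 74 and 107. Cluster C was thus the largest in both chromatin lists and in SRSF3 nucleoplasm, while cluster D was the largest in SRSF7 nucleoplasm. Cluster B was not among the 3 clusters that the rule for named clusters takes and was named after its values were seen.

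In Eef1b2 the dense clusters stood close together. Cluster A lay at 63225257 to 63225299, cluster B at 63225562 to 63225593 and cluster C, only 47 nt after B, at 63225641 to 63225676. SRSF3 had 266, 127 and 577 cDNAs there in chromatin and 86, 107 and 54 in nucleoplasm. SRSF7 had 75, 151 and 112 in chromatin and 247, 0 and 23 in nucleoplasm. The make-up of the gene therefore differed between the nuclear lists of SRSF7, where cluster A held 21.9% of cDNAs in chromatin (17.6 to 26.6) and 90.5% in nucleoplasm (86.4 to 93.7), while cluster B held 44.0% in chromatin and was not listed in nucleoplasm. Cluster B likewise came to be named after its values were seen, since a cluster at the 5′ edge of the interval took the place in the rule.

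In Gnl3, on the minus strand, cluster A lay at 31829421 to 31829486, cluster B at 31828367 to 31828397 and cluster C at 31827499 to 31827534. SRSF3 chromatin had 511, 183 and 110 cDNAs and SRSF7 chromatin 410, 69 and 48, so cluster A led in both. In SRSF3 nucleoplasm the counts were 14, 5 and 19, too few to order. In SRSF7 nucleoplasm clusters A and B were about equal, at 100 and 98, with 23 in cluster C.

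**Figure D3:**
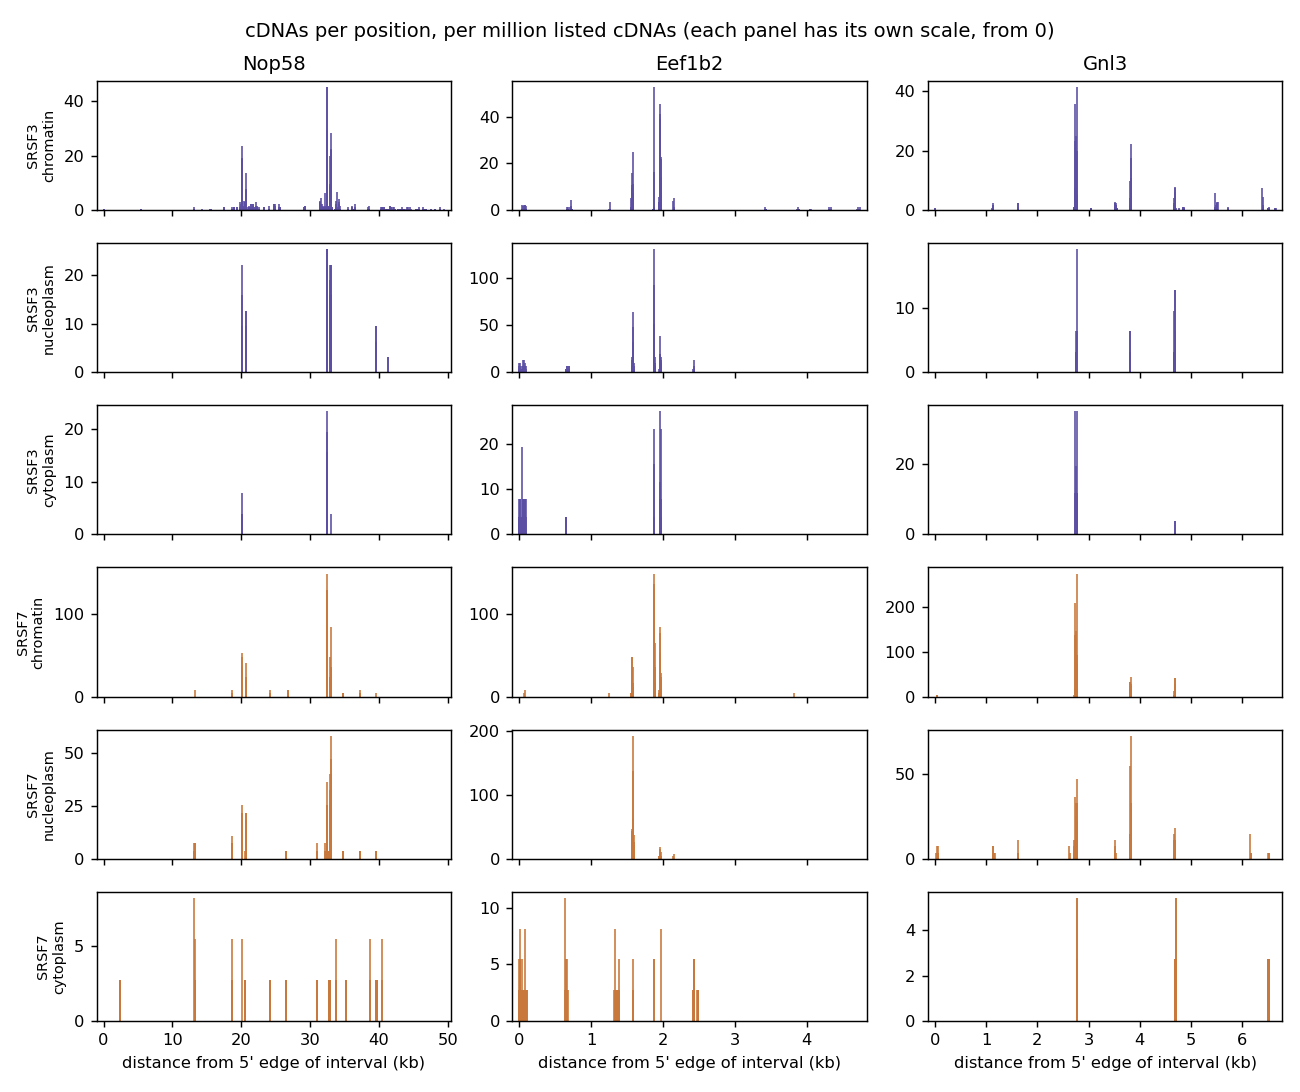
cDNAs at each listed position, per 1000000 listed cDNAs, against distance from the 5′ edge of the interval in kb, for the 6 lists (rows) and 3 genes (columns), each panel scaled from 0. Clusters were joined over all 6 lists, so their distances are the same in every row by definition. The 4 dense clusters of Nop58 and the 3 of Gnl3 hold cDNAs in each chromatin and nucleoplasm row, with only 5 at Gnl3 cluster B in SRSF3 nucleoplasm. No position of the SRSF7 cytoplasm row exceeds 4 cDNAs.

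The dense clusters took different parts of a gene's cDNAs in different fractions. They were picked on the chromatin and nucleoplasm lists, which favours a high percentage there and a lower one in cytoplasm. For SRSF7, dense clusters held 96.7% of the Nop58 chromatin cDNAs (95.1 to 97.9), 82.6% of those of nucleoplasm (78.1 to 86.5) and 2.99% of those of cytoplasm (0.364 to 10.4). At Eef1b2 they held 98.5% for chromatin (96.6 to 99.5), 98.9% for nucleoplasm (96.8 to 99.8) and 12.5% for cytoplasm (6.63 to 20.8). With the dense threshold at 5%, that cytoplasm value was 54.2%. At Gnl3 the shares were 99.6% for chromatin (98.6 to 99.95), 82.8% for nucleoplasm (77.7 to 87.1) and 75.0% for cytoplasm (53.3 to 90.2), the cytoplasmic one from only 24 cDNAs.

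The dense and the remaining stretches of Nop58 and Eef1b2 had ratios of opposite sign in SRSF7. Dense clusters of Nop58 held 698 chromatin cDNAs and 2 cytoplasm cDNAs, which gave 9.01 on the log2 scale (7.15 to 12.06), and the rest of the interval held 24 and 65, a ratio of -0.87 (-1.61 to -0.18). Dense clusters of Eef1b2 held 338 and 12, at 5.38 (4.56 to 6.35), and the rest 5 and 84, at -3.51 (-5.17 to -2.23). At Gnl3 the dense clusters gave 5.44 (4.76 to 6.20) from 527 and 18 cDNAs, and the rest, with 2 and 6 cDNAs, had too few to give a direction (-1.02, -4.36 to 1.46). The dense clusters were picked on nuclear lists, so the choice itself favours a high ratio there and a low one in the rest. With the threshold at 20%, an alternative added after seeing the data, the remaining part turned to 1.95 at Nop58 and 2.12 at Gnl3, since clusters A and B of Nop58 and cluster C of Gnl3 then counted as outside.

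In SRSF3 cytoplasm all listed cDNAs of Nop58 and Gnl3 lay in dense clusters, most of them in 1 cluster. At Nop58 dense clusters held 66.4% of the SRSF3 chromatin cDNAs (64.6 to 68.2), 91.5% for nucleoplasm (87.0 to 94.9) and 100% for cytoplasm (93.5 to 100), where cluster C alone had 49 of 55 cDNAs. At Gnl3 they held 81.2% for chromatin (78.6 to 83.6), 100% for nucleoplasm (90.7 to 100) and 100% for cytoplasm (92.3 to 100), where cluster A alone had 44 of 46. Eef1b2 went the other way, with 87.5% for chromatin (85.4 to 89.4), 75.1% for nucleoplasm (70.0 to 79.7) and 47.0% for cytoplasm (35.9 to 58.3). With the dense threshold at 5%, that cytoplasm value was 95.2%. SRSF7 cytoplasm had 0 cDNAs of 67 in cluster C of Nop58 and 7 of 24 in cluster A of Gnl3.

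The cytoplasmic lists of the proteins held different positions at Nop58 and shared part of them at Eef1b2 and Gnl3. The interval of the log2 share ratio includes 0 at Nop58 and Eef1b2. At Nop58, with shares of 0.0214% in SRSF3 and 0.0182% in SRSF7 cytoplasm, SRSF3 listed 23 positions in 3 clusters and SRSF7 59 positions in 17 clusters. Of those 59, 0 lay within 5 nt of an SRSF3 cytoplasmic position. At Eef1b2, 34 of 71 SRSF7 cytoplasmic positions did, and at Gnl3 9 of 20. The authors' track names for SRSF7 carry a term for joint treatment of regions that those for SRSF3 lack, although both descriptions say regions were treated separately, so a difference in peak calling and a difference in binding cannot be told apart here.

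Eef1b2 had a further cluster, at the 5′ edge of its interval, that was prominent in cytoplasm. At 63223703 to 63223813 it held 44, 51 and 40 cDNAs in SRSF3 chromatin, nucleoplasm and cytoplasm, and 3, 0 and 40 in SRSF7. Of the gene's SRSF3 cDNAs it made up 3.97% for chromatin, 15.5% for nucleoplasm and 48.2% for cytoplasm, and of the SRSF7 cDNAs 0.875% for chromatin and 41.7% for cytoplasm. With this cluster left among the rest, the remaining part of Eef1b2 was lower in SRSF3 chromatin than in SRSF3 cytoplasm, at -1.12 (-1.62 to -0.60). With a threshold of 5%, also added after seeing the data, the cluster counted as dense and the ratio of the rest turned to 1.79.

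**Figure D4:**
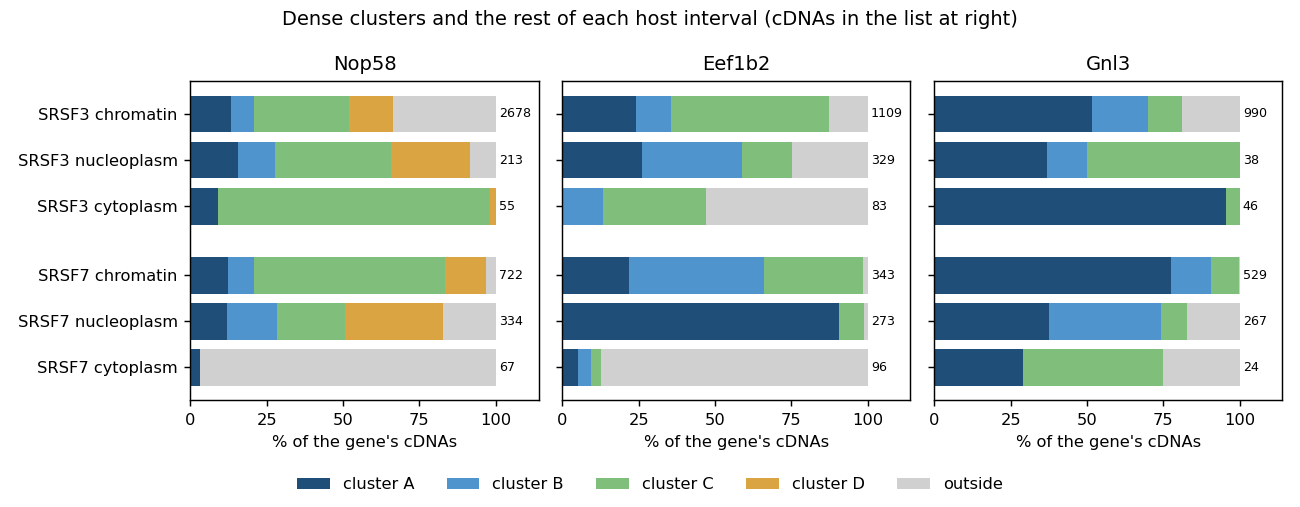
Percent of each gene's cDNAs that fell in dense clusters A to D and outside them, for the 6 lists, with the gene's cDNA count at the right of each bar. Dense clusters make up 2.99% of Nop58 in SRSF7 cytoplasm, where grey (outside) fills the rest, and 100% in SRSF3 cytoplasm.

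Peak heights are counts and move with the depth of the list. The tallest position of Nop58 had 80, 8 and 6 cDNAs in SRSF3 chromatin, nucleoplasm and cytoplasm and 37, 16 and 3 in SRSF7. Eef1b2 reached 93, 41 and 7 in SRSF3 and 37, 53 and 4 in SRSF7. Gnl3 reached 73, 6 and 9 in SRSF3 and 68, 20 and 2 in SRSF7. Positions with a single cDNA made up 28.7% of Nop58 positions in SRSF7 chromatin, 48.4% in nucleoplasm and 88.1% in cytoplasm, and the SRSF3 values were 64.5%, 44.3% and 39.1%. SRSF3 chromatin, the deepest list, also carried 621 thinly bound Nop58 positions outside the dense clusters, with at most 12 cDNAs each. Scaled to the depth of the smallest list, 200.8 of its 789 Nop58 positions would be expected to keep a cDNA. The significance threshold was not applied again, so 200.8 is not a list length to set against the 108 of SRSF7 chromatin.

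Several tall positions were the same nucleotide in different lists. In Gnl3, position 31829436 was the tallest, alone or tied, in every list but SRSF7 nucleoplasm, where 31828383 in cluster B had 20. It had 73, 6 and 9 cDNAs in SRSF3 chromatin, nucleoplasm and cytoplasm, and 68, 13 and 2 in SRSF7. In Eef1b2, position 63225577 led SRSF3 chromatin with 93 and SRSF3 nucleoplasm with 41 cDNAs, and the neighbouring 63225578 led SRSF7 chromatin with 37. In Nop58 cluster C, position 59761130 was 1 of 2 positions tied as tallest for SRSF3 chromatin, with 80 there against 26 for SRSF7 chromatin. Position 59761104, the tallest for SRSF7 chromatin, had 52 for SRSF3 chromatin against 37 for SRSF7 chromatin.

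Nucleotide profiles of the proteins in chromatin were compared within dense clusters. Over the 10 dense clusters, Pearson's r between SRSF3 and SRSF7 chromatin counts per nucleotide had a median of 0.82, and ranged between 0.62 at Eef1b2 cluster B and 0.92 at Eef1b2 cluster C. It was 0.90 over the 57 nt of Nop58 cluster C and 0.89 over the 66 nt of Gnl3 cluster A. Spearman's rho for the same pair was 0.91 and 0.72 in those clusters, but 0.19 at Eef1b2 cluster B and 0.48 at Nop58 cluster B, so ranks were less alike there. At Eef1b2 cluster B the SRSF3 chromatin list stops at 63225577, while SRSF7 chromatin has 83 of its 151 cDNAs beyond that position. SRSF3 nucleoplasm, which is listed on both sides of it, had r of 0.90 and rho of 0.85 with SRSF7 chromatin there. These are descriptions over neighbouring nucleotides, which share sequence, cluster edges and library.

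**Figure D5:**
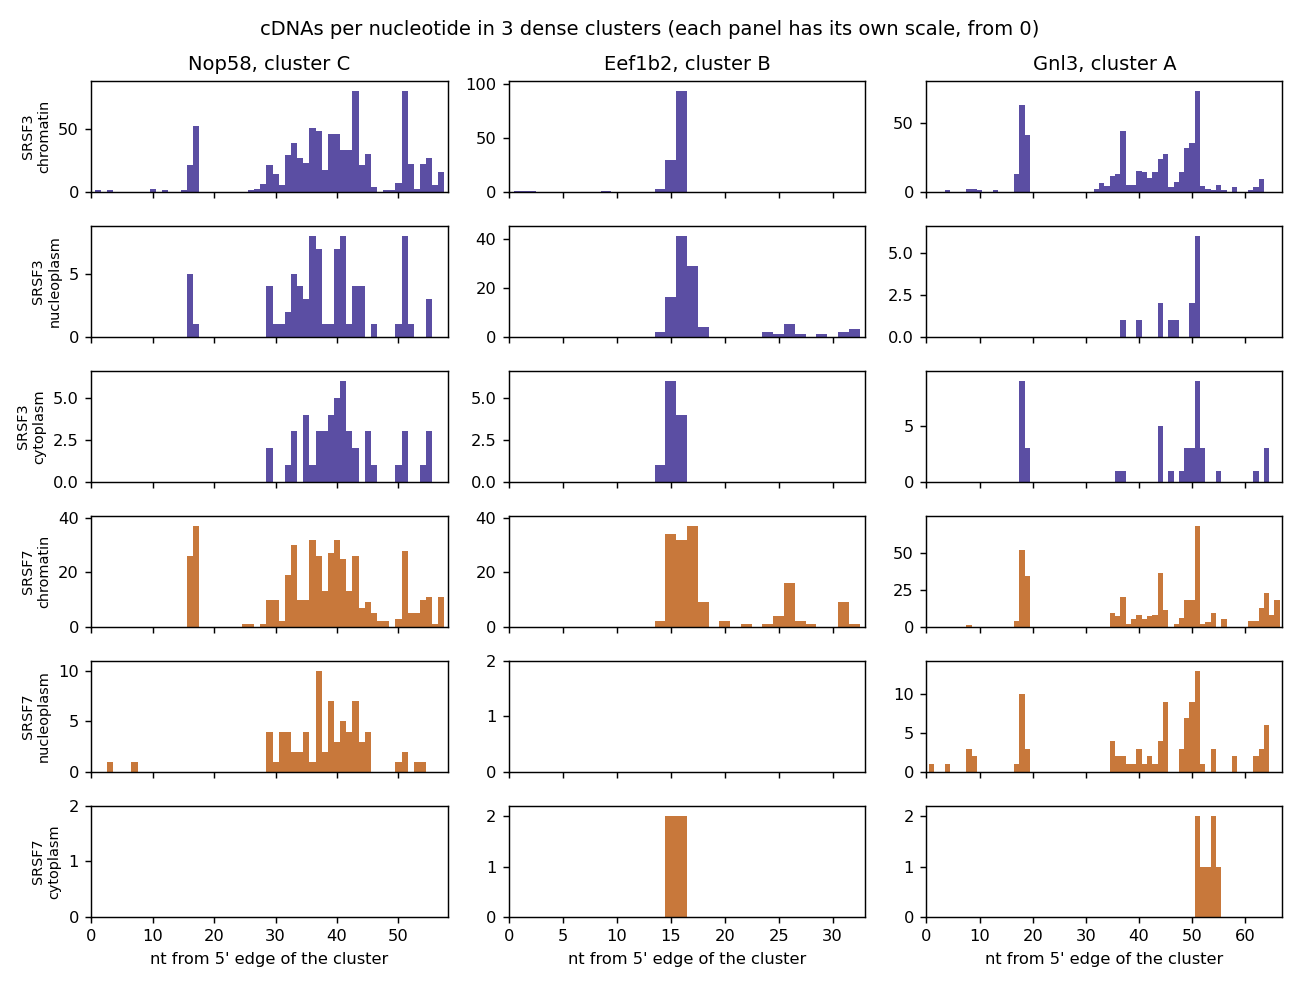
cDNAs per nucleotide in Nop58 cluster C, Eef1b2 cluster B and Gnl3 cluster A, by distance in nt from the 5′ edge of the cluster, for the 6 lists, each panel scaled from 0. SRSF3 and SRSF7 chromatin have r of 0.90 in Nop58 and 0.89 in Gnl3, and SRSF3 chromatin at Eef1b2 breaks off after its tallest position at 93 cDNAs.

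Positions were also compared by nearness. In chromatin, 84.3% of SRSF7 positions in Nop58 (76.0 to 90.6), 84.1% in Eef1b2 (72.7 to 92.1) and 97.0% in Gnl3 (89.5 to 99.6) lay within 5 nt of an SRSF3 chromatin position. Within SRSF3, all 23 cytoplasmic positions of Nop58 and all 16 of Gnl3 lay within 5 nt of a chromatin position, as did 34 of 47 in Eef1b2. Within SRSF7, only 7 of 59 in Nop58, 10 of 71 in Eef1b2 and 8 of 20 in Gnl3 did. The lists searched differ in length, with 870234 positions over the genome in SRSF3 chromatin and 76172 in SRSF7 chromatin.

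Likeness to other loci was measured over the 6 lists, as the Euclidean distance between log2 shares centred on each locus's mean, among 558 other loci with at least 10 cDNAs in every list and 200 in all. The nearest to Nop58 was a plus-strand locus at chr9:40609392-40615329 (distance 1.09), with 0.264%, 0.177% and 0.0906% of SRSF3 chromatin, nucleoplasm and cytoplasm and 1.05%, 0.243% and 0.0512% of SRSF7. It was followed by chr3:153566588-153575918 on the minus strand (1.13) and chr7:148633550-148638284 on the plus strand (1.20). Nearest to Eef1b2 were chr7:29638593-29638609 on the minus strand, chr2:26766318-26768461 on the plus strand (both 0.93) and chr3:96202896-96228034 on the minus strand (1.02). Nearest to Gnl3 were chr15:79904973-79918974 (1.19) and chr11:77986052-77997061 (1.71) on the minus strand and chr11:116532981-116536617 (1.80) on the plus strand. The members were not each other's nearest: Nop58 ranked 8 from Gnl3, their distance being 1.98, and 71 from Eef1b2, while Gnl3 ranked 40 and Eef1b2 36 from Nop58. Eef1b2 and Gnl3 were 3.12 apart.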

How the data were processed

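The members and lists were chosen with earlier results of these data known. Per the file headers, the authors listed single nucleotides of build mm9 that passed a false discovery rate of 0.05 with 100 permutations and a 15 nt neighbourhood. The deposited score of a position is a signed whole number of cDNAs, and its sign was read as the strand. Replicates of a group were pooled, per the file headers. For the aligner, the peak caller, duplicate removal and reads from near-identical snoRNA copies, the methods were not stated in the labels.

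Shares of a list's cDNAs have exact Clopper-Pearson intervals at 95%, and log2 ratios of shares have conditional exact binomial intervals. A ratio entered the comparison over loci with at least 50 cDNAs in both lists together and 10 in each. No p-value is given, since a group is 1 value. The 3 clusters named by rule in each gene have the highest mean share of the gene's cDNAs over the 6 lists, and 3 loci most like each gene were named. The ratios were tested on simulated data, drawn without a significance threshold or spread between replicates, so effects of these were not tested. Known changes were placed only in loci below a cap on share, which left out members in some comparisons. Alternatives were positions with at least 3 cDNAs, positions in place of cDNAs, other denominators, gaps and distances, and a shorter interval. snoRNA names come from RefSeq GRCm38.p6. Scripts ran on scipy 1.17.1, numpy 2.4.6 and pandas 2.3.3 under Python 3.11.15, and matplotlib 3.10.9 drew the figures.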

Additional observations from a re-analysis of the deposited data

Results flagged for a closer look

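Signs of the same contrast differed between proteins or fractions for several values, and none of these differences was tested, because each value is 1 pooled list. Eef1b2 was lower in chromatin than in nucleoplasm for SRSF3 (log2 ratio -0.73) and higher for SRSF7 (0.48). Counting only positions that had 3 or more cDNAs, these were 0.0091 and -0.10. Gnl3 in nucleoplasm against cytoplasm gave -0.57 for SRSF3, with an interval that includes 0, and 3.89 for SRSF7. The ratio of SRSF3 to SRSF7 changed sign across chromatin, nucleoplasm and cytoplasm at Gnl3 (-1.93, -3.01 and 1.45), at Nop58 (-0.94, -0.85 and 0.23) and at Eef1b2 (-1.14, 0.071 and 0.30). At Nop58 and Eef1b2 the positive values have intervals that include 0.

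The strand opposite to each gene was read as data outside the main measurement. It held 55 cDNAs over 49 positions in SRSF3 chromatin within the Nop58 interval, against 2678 on the gene's strand, and 2 each in SRSF3 cytoplasm and SRSF7 cytoplasm. Within Eef1b2 it held 4 in SRSF3 chromatin and 8 in SRSF3 cytoplasm, where the gene's strand had 1109 and 83. In the Gnl3 interval it held 0 in all 6 lists.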

How the results depend on the processing

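No paired analysis was possible because the replicates were pooled before deposit; for the same reason no replicate could be left out. For chromatin against cytoplasm, leaving out the tallest position of each list kept all 6 log2 ratios within their intervals. Counting only positions with at least 3 cDNAs gave 3.51 (Nop58), 2.94 (Eef1b2) and 2.43 (Gnl3) in SRSF3, and 8.09 (Nop58, from 655 and 3 cDNAs, interval 6.54 to 10.38) and 4.52 (Eef1b2) in SRSF7; Gnl3 had no such position in SRSF7 cytoplasm. Counting positions in place of cDNAs gave 1.21 (Nop58), -2.21 (Eef1b2, turned from 0.96) and -0.46 (Gnl3, turned from 1.65) in SRSF3, and 1.78, 0.73 and 2.63 in SRSF7; it ended the calls of Nop58 and Gnl3 in SRSF3 and of Eef1b2 in SRSF7, and put Eef1b2 in SRSF3 beyond 2-fold towards cytoplasm. It also turned Eef1b2 in SRSF7 nucleoplasm against cytoplasm to -0.63. Ratios of positions are scaled to the positions of each list and count a position once, whatever its cDNAs, so they are another measure than ratios of cDNAs. With mitochondrial RNA and the 10 highest loci left out, the SRSF3 ratios were 2.12, 0.26 and 0.94, and the SRSF7 ratios shifted by -0.08. Joining the Nop58 interval at gaps of up to 1000 nt gave 2.14 in SRSF3 and 5.36 in SRSF7. The causes were not tested. Depth limits Gnl3 most, with 24 cDNAs in SRSF7 cytoplasm and 38 in SRSF3 nucleoplasm.

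Loci beyond 2-fold over the genome, with positions of at least 3 cDNAs and then with positions counted, numbered 284 and 367 against 617 as reported for SRSF3 chromatin against cytoplasm, 160 and 164 against 333 for SRSF7 chromatin against cytoplasm, 166 and 96 against 327 for SRSF7 chromatin against nucleoplasm, and 203 and 241 against 489 for SRSF7 nucleoplasm against cytoplasm. For SRSF3 against SRSF7 they were 185 and 309 against 525 in chromatin, 160 and 163 against 339 in nucleoplasm, and 107 and 146 against 300 in cytoplasm. For SRSF3 chromatin against nucleoplasm they were 349 and 591 against 867, and for SRSF3 nucleoplasm against cytoplasm 167 and 48 against 232. The minimum counts were applied anew under each setting, so the number of loci compared was not fixed. A fall in these counts is thus not a fall in the share of loci called. Dense clusters held 83.9% of Eef1b2 in SRSF3 cytoplasm in place of 47.0% with positions of at least 3 cDNAs, a setting chosen after seeing the data.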

Other observations

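The SRSF3 chromatin list breaks off within Eef1b2 cluster B. It lists 93 cDNAs at position 63225577 and 0 at 63225578, and no further position of the cluster up to 63225593. SRSF3 nucleoplasm lists 41 and 29 cDNAs at these neighbouring positions and 48 cDNAs over 9 positions beyond the break. SRSF7 chromatin lists 32 and 37, and 83 cDNAs over 11 positions beyond it. The SRSF3 cytoplasm and SRSF7 cytoplasm lists also end at 63225577 in this cluster, with 11 and 4 cDNAs. The fall to 0 beside the tallest nucleotide was found after seeing the data, and its cause was not tested.

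Eef1b2 in SRSF7 nucleoplasm was the most concentrated of the chromatin and nucleoplasm lists of the 3 genes, with 90.5% of its cDNAs in 1 cluster. The median over 182 loci with at least 200 cDNAs in that list was 36.4%, and 78.6% of them lay below Eef1b2. Cluster B, which held 44.0% of Eef1b2 in SRSF7 chromatin, was not listed in SRSF7 nucleoplasm. In SRSF3 chromatin, the largest cluster held 31.3% of Nop58, 52.0% of Eef1b2 and 51.6% of Gnl3, against a median of 8.59% over 1307 loci. In SRSF3 nucleoplasm it held 38.0% of Nop58 and 32.5% of Eef1b2, both below the median of 53.6% over 162 loci, and 19 of the 38 cDNAs of Gnl3. In SRSF7 chromatin the values were 62.3%, 44.0% and 77.5%, against a median of 62.3% over 153 loci, so Nop58 was at the median, Gnl3 above it and Eef1b2 below it. Those medians are over loci of different lengths and depths.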
